A study of Mus musculus with 4 samples.

Results

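Transcripts of 31 genes of glucose breakdown and of the response to low oxygen were followed in single mouse embryos at embryonic day 5.5. The genes were taken by symbol from a list made up of 13 glycolytic enzymes, 3 transporters of glucose and lactate, 4 genes of oxygen sensing and 11 genes known to respond to hypoxia. All 31 were found among the 47885 rows of the count table, and all 31 passed the filter on low counts. Ero1l, also written Ero1a, was listed under its older symbol.

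The 4 embryos were of the C57BL/6 background and each gave 1 library. Labelled Mettl14+/+ are the 2 control embryos, called WT here, and labelled Mettl14-/- are the 2 mutant embryos, called KO here. Mettl14 encodes a subunit of the methyltransferase that places N6-methyladenosine on RNA, and the study asked what its absence does to the embryo before mutants differ in shape from littermates. The genotype was called by qPCR on the amplified cDNA of the same embryos, so a control embryo is one in which the transcript was found, and a heterozygous embryo would have been classed with the controls. No driver, Cre or deleted exon is named in the labels. A whole embryo at this stage holds epiblast, extraembryonic ectoderm and visceral endoderm, and in such bulk RNA fewer cells of one type and less RNA per cell cannot be told apart.

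Glycolysis splits glucose into pyruvate in the cytoplasm, and lactate dehydrogenase turns pyruvate into lactate so that the pathway can run on without oxygen. The transcription factor HIF-1 switches on many of its genes: when oxygen is present, prolyl hydroxylases mark the HIF-1α protein and the VHL ubiquitin ligase removes it, and when oxygen is short the protein stays and binds DNA at a short core motif whose letters are given with the promoters. In the mouse, the epiblast after implantation is known for relying strongly on glycolysis.

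The libraries held between 16108062 counts in WT replicate 1 and 28698541 in KO replicate 2, and replicate 2 was the deeper one in each group. Mettl14 had 33.96 and 31.6 CPM in WT and 4.63 and 8.04 CPM in KO, where CPM are counts scaled to a common library size; the embryos were classed by this transcript, so its level is no separate check. KO replicate 2 stood apart on the first principal component, at 109 against -77.8, -26.0 and -5.49 for the others. Each of 10 epiblast and 10 extraembryonic ectoderm markers had counts in every library. The summed level of 12 visceral endoderm markers was 775 and 2031 CPM in WT and 283 and 355 CPM in KO, and that of 10 ectoplacental cone and giant cell markers was 374 and 575 CPM in WT and 1859 and 1050 CPM in KO, with Prl2c2, Tpbpa, Ctsq and Prl3b1 at 0 throughout.

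Promoter windows of 300 bases, 250 before and 50 after an annotated start, were at hand from RefSeq (build GRCm38.p6) for 27 of the 31 genes; Slc2a3, Bnip3l, Ndrg1 and Ero1l had none. Some genes had more than 1 window, and a window can lie inside the gene's outer coordinates given with the results. The core ACGTG was looked for on both strands. At least 1 match stood in 20 of the 36 windows of these genes (55.6%), against 19.6% of all 32851 windows, and GCGTG stood in 52.8% against 32.4%. The longer CACGTG stood in 3 of the 36 (8.33%), against 7.15% of all windows. Windows of 1 gene can overlap, as some of Aldoa did, and can then share a match. The genes were listed for glucose breakdown and the hypoxia response, so these rates describe a chosen list. The windows of these genes also had a higher GC content, with a median of 64.8% against 52.7%, and its part in the match rate was not tested. The windows of 4 genes are printed because the results return to them: Ldha, P4ha1 and Hif1a, with lower mean values in KO, and Egln3, with a higher one. Capitals mark the ACGTG core on either strand, and the palindrome CACGTG, also known as the E-box, counts once on each strand. The windows are chr7:46845554-46845853 on the plus strand for Ldha, chr10:59323046-59323345 on the plus strand for P4ha1, chr12:73907617-73907916 on the plus strand for Hif1a, chr12:54203825-54204124 on the minus strand for Egln3.
Ldha: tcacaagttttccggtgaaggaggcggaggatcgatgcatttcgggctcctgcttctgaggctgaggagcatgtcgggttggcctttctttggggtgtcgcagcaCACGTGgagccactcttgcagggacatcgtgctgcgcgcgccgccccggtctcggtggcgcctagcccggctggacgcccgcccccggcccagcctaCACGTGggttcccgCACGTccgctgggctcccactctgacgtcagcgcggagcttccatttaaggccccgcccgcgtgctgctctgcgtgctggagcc
P4ha1: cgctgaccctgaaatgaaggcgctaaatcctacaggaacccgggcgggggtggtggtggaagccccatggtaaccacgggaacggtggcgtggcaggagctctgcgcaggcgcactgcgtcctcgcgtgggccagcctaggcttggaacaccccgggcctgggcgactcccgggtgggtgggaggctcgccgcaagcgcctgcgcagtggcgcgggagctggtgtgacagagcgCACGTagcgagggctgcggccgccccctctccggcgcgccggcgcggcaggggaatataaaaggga
Hif1a: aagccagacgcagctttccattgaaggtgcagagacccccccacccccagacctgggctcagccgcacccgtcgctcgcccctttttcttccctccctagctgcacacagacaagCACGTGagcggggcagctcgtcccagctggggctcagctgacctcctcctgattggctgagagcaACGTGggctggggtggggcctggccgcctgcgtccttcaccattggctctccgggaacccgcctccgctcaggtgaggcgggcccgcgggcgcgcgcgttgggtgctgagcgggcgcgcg
Egln3: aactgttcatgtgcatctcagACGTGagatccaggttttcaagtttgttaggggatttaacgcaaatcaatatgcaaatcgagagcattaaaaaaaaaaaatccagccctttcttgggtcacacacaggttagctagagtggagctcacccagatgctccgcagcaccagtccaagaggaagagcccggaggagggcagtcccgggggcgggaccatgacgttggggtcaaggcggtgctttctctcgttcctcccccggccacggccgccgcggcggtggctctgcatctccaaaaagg
Of the 2 Ldha windows, the one printed held 5 matches over both strands, the most of the 36, with CACGTG at 2 places; the other, chr7:46846832-46847131, held 0. Hif1a had 3 matches with CACGTG at 1 place, and P4ha1 and Egln3 had 1 match each. A match of these letters is a description of the sequence and says nothing of binding in these embryos.

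None of the 13 glycolytic enzyme genes passed the test of KO against WT across all genes. Their mean levels over the 4 embryos ran from 27.5 CPM for Hk1 to 6951 CPM for Gapdh. The 13 together made up 2.36% and 3.30% of all counts in WT and 2.03% and 3.18% in KO. Their summed level was 28927 ± 9277 CPM in WT and 26077 ± 9384 CPM in KO (SD, n = 2), so the group means lay closer to each other than the embryos of either group. In 12 of the 13 genes the estimate was below 0, where 8138 of all 15563 genes tested were below 0. With 1 library left out in turn, every enzyme except Pfkl and Ldha took both signs. The median log2 fold change of the 13 was -0.16 where that of all genes tested was -0.03. The median of all 31 genes was also -0.16, but it was 0.054 without WT replicate 2 and 0.056 without KO replicate 1, so its sign rested on single embryos.

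Over all genes, edgeR with Benjamini-Hochberg adjustment called 0 genes, which is 0% of those tested, and 1217 (7.82%) had an unadjusted p under 0.05. Mettl14 itself was not called, at a log2 fold change of -2.37 (edgeR adjusted p = 0.274, DESeq2 adjusted p = 0.00043). A gene left uncalled by edgeR here is thus not shown to be unchanged. Among the 31 genes 0 passed the threshold of 0.05 and 1, Slc2a3, had an unadjusted p below 0.05. DESeq2 called 230 genes (1.48%) and 0 of the 31, and limma-voom called 0 genes in all. With a library left out edgeR called genes, from 14 higher and 1 lower without WT replicate 2 to 133 higher and 209 lower without KO replicate 1, and still 0 of the 31. Both KO embryos lay above both WT embryos in 4 of the 31, where 19.4% of all genes did so, and below them in 5 of the 31, where 18.8% did. These shares are near or under those of all genes.

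**Figure D1:**
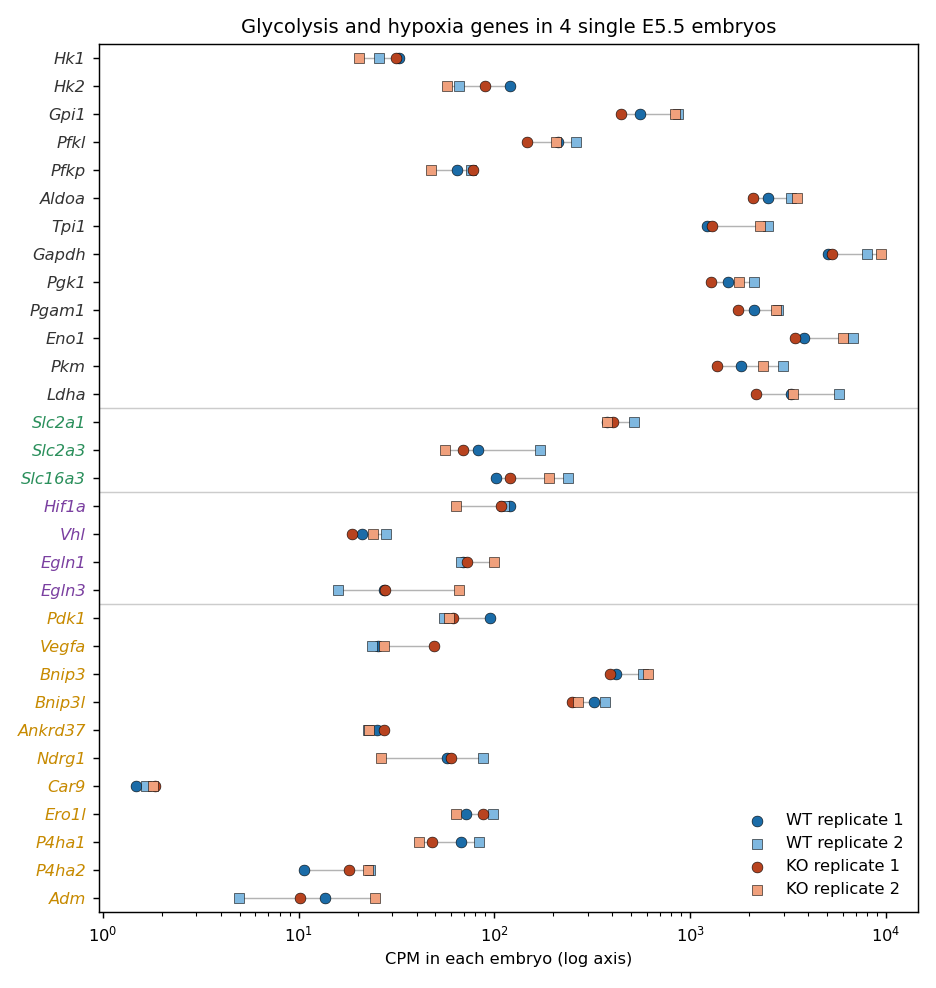
Level of each gene in each embryo in CPM on a log axis; blue marks WT, red marks KO, circles replicate 1 and squares replicate 2, and rows are grouped by role. The squares lie to the right of the circles for most of the abundant glycolytic enzymes in both genotypes, and WT and KO points intermix in 22 of 31 rows.

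Entry of glucose into the pathway is set by hexokinase, which traps glucose in the cell by phosphorylating it. Hk2, the hexokinase isozyme induced by growth signals and hypoxia, had 120.0 and 66.2 CPM in WT and 89.9 and 57.4 CPM in KO. Hk1, the isozyme of most adult tissues, had 32.6 and 25.8 CPM in WT and 31.3 and 20.3 CPM in KO. In both genes replicate 1 was the higher embryo of each genotype and the groups overlapped. Gpi1, which turns glucose 6-phosphate into fructose 6-phosphate, had 553 and 871 CPM in WT and 444 and 836 CPM in KO.

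Phosphofructokinase commits the sugar to glycolysis. Its liver-type subunit Pfkl had 212 and 262 CPM in WT and 147 and 206 CPM in KO. Both KO embryos were below both WT embryos, KO replicate 2 by a small margin (log2 fold change -0.43, standard error SE 0.32, n = 2, edgeR adjusted p = 0.842). The platelet-type subunit Pfkp, whose exons overlap those of Pitrm1 on the other strand over 748 bases, had 64.2 and 75.6 CPM in WT and 77.3 and 47.6 CPM in KO, and overlapped.

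The middle of the pathway was carried by single abundant genes. Aldoa, the aldolase that splits the sugar, had 2508 and 3270.4 CPM in WT and 2096 and 3525 CPM in KO. Tpi1, which interconverts the products of that split, had 1220.0 and 2496 CPM in WT and 1292 and 2261 CPM in KO. Gapdh, the dehydrogenase often used as a reference gene, was the most abundant of the 31 with 5057 and 8019 CPM in WT and 5273 and 9454 CPM in KO. In all of these the 2 replicates of a genotype differed by more than the genotypes did: Gapdh was 1.59-fold higher in WT replicate 2 than in WT replicate 1 and 1.79-fold higher in KO replicate 2 than in KO replicate 1, while its log2 fold change of KO over WT was 0.17 (SE 0.34). It was the only one of the 13 enzymes with an estimate above 0.

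Energy is harvested in the lower part of the pathway. Pgk1, the first enzyme to make ATP, had 1566 and 2112 CPM in WT and 1284 and 1778 CPM in KO. Pgam1, the phosphoglycerate mutase, had 2119 and 2807 CPM in WT and 1748 and 2750.4 CPM in KO. Eno1, the enolase, had 3831 and 6797 CPM in WT and 3420.2 and 6064 CPM in KO. These 3 genes overlapped between genotypes, with log2 fold changes of -0.26, -0.13 and -0.16. Pkm, the pyruvate kinase gene whose splice forms are not separated here, had 1814 and 2962 CPM in WT and 1370.0 and 2359 CPM in KO, with KO replicate 2 between the WT embryos.

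Ldha (ENSMUSG00000063229, chr7:46841475-46855627 on mm10, plus strand), the lactate dehydrogenase subunit that favours lactate, had the estimate farthest from 0 of the enzymes. It had 3271 and 5723 CPM in WT and 2169 and 3354 CPM in KO. KO replicate 1 was below both WT embryos, and KO replicate 2 was just above WT replicate 1; with library totals in place of TMM scaling both KO embryos were below both WT embryos. The estimate on the log2 scale was -0.70 (SE 0.34, n = 2, edgeR adjusted p = 0.696), and it was -1.04 without KO replicate 2, -0.34 without KO replicate 1 and -0.24 without WT replicate 2. In the same libraries the summed visceral endoderm markers were also highest in WT replicate 2. Unlike Ldha with TMM scaling, they were lower in both KO embryos than in either WT embryo. Their part in the Ldha difference was not tested.

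**Figure D2:**
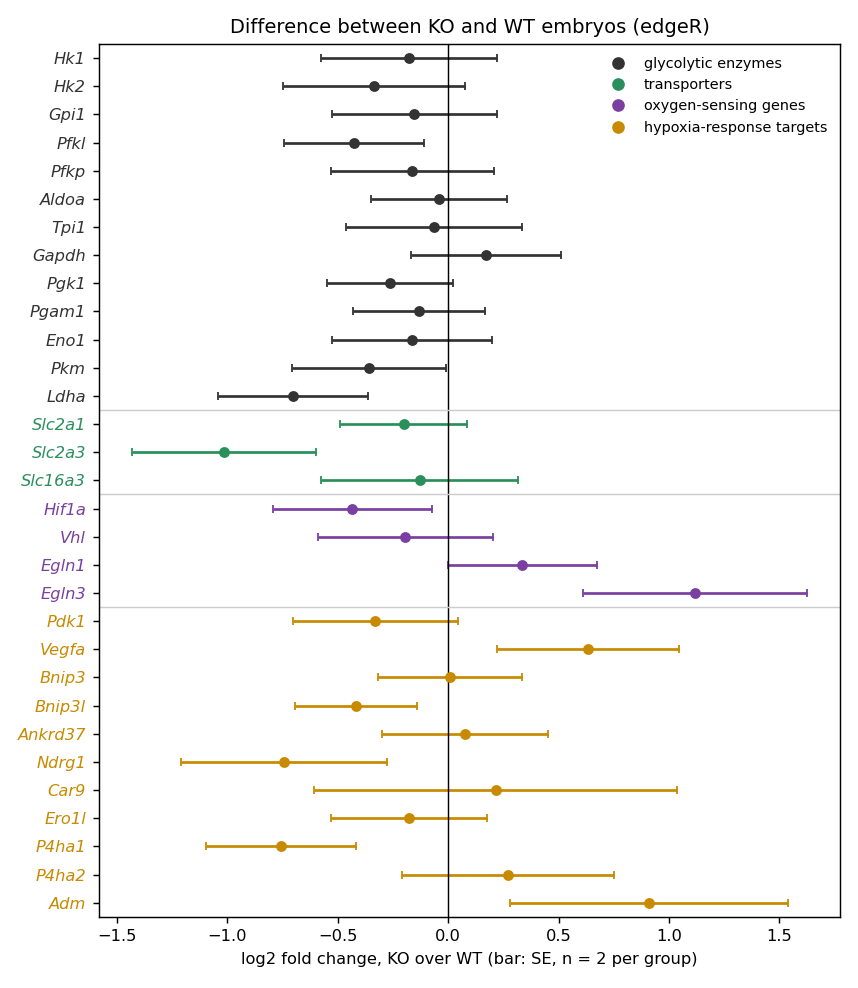
Log2 fold change of KO over WT by edgeR with its SE (n = 2 per group), coloured by role. Slc2a3 at -1.01 and Egln3 at 1.12 mark the ends, and none of the 31 passed the threshold over all genes. Of the enzymes 12 of 13 lie below 0, where 8138 of all 15563 genes tested did.

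For most enzymes the 2 embryos of a genotype differed in the same direction in WT and in KO. Among the 13 enzymes, 10 were higher in replicate 2 than in replicate 1 in WT and in KO alike, and Hk1 and Hk2 were lower in replicate 2 in both. Of all genes tested, 29.8% were higher in replicate 2 in both groups. The median ratio of replicate 2 to replicate 1 over the enzymes was 1.35 in WT and 1.57 in KO, against 0.999 and 0.974 over all genes. Of the 11 hypoxia-response targets 3 were higher and 3 lower in replicate 2 of both genotypes. Replicate 2 was also the deeper library in each group, and the part of depth in this was not tested. Nothing in the labels ties equal numbers to a common litter.

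**Figure D3:**
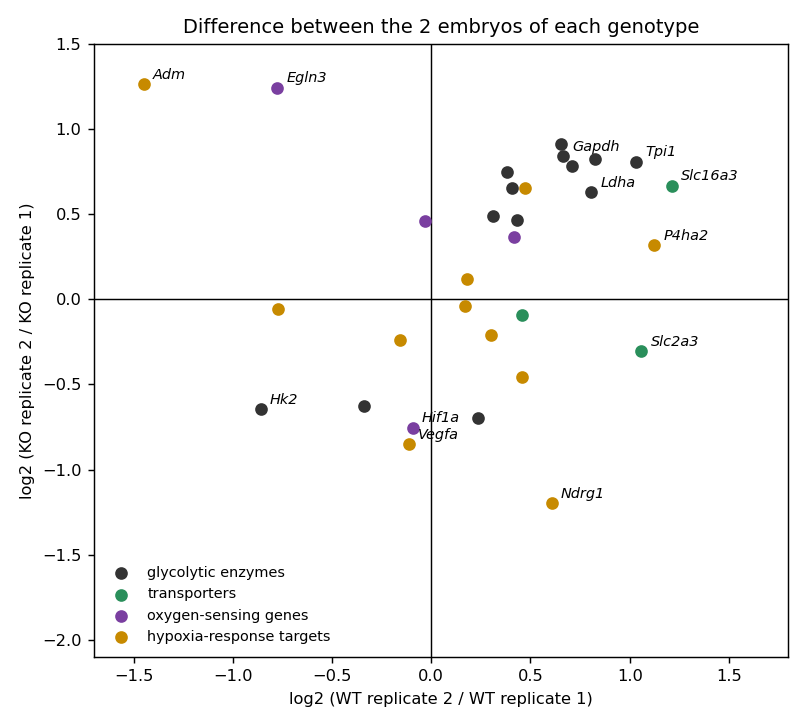
Log2 ratio of replicate 2 to replicate 1 in WT (x axis) and in KO (y axis), 1 point per gene coloured by role. Of the 13 enzymes 10 sit in the upper right quadrant, while Adm, Egln3 and, close to the axis, Egln1 sit in the upper left, lower in WT replicate 2 and higher in KO replicate 2.

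Glucose enters through facilitative transporters. Slc2a1 (GLUT1), the widely used one, had 377 and 517 CPM in WT and 402 and 377 CPM in KO. WT replicate 2 was highest and the other embryos lay close together (log2 fold change -0.20, SE 0.29). Slc2a3 (GLUT3; ENSMUSG00000003153, chr6:122727809-122801640 on mm10, minus strand), a transporter of high affinity, had 82.1 and 171 CPM in WT and 69.3 and 56.1 CPM in KO. Both KO embryos were below both WT embryos, and WT replicate 2 stood far above the other 3. The estimate on the log2 scale was -1.01 (SE 0.42, n = 2, unadjusted p = 0.0399, edgeR adjusted p = 0.608), and without WT replicate 2 it was -0.38. The visceral endoderm markers were likewise highest in WT replicate 2 and lower in both KO embryos, and their part in the Slc2a3 difference was not tested. Slc16a3 (MCT4), which carries lactate out of the cell, had 102 and 236 CPM in WT and 119.5 and 189.8 CPM in KO, with replicate 2 the higher embryo in both genotypes and full overlap.

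Of the 4 genes of oxygen sensing, Hif1a and Vhl had estimates below 0 and Egln1 and Egln3 above 0, none past the threshold. Hif1a (ENSMUSG00000021109, chr12:73901375-73947530 on mm10, plus strand), the regulated subunit of HIF-1, had 119.8 and 112 CPM in WT and 108 and 63.9 CPM in KO. The KO values were lower, by little in KO replicate 1, and with library totals the groups overlapped. The log2 fold change was -0.43 (SE 0.36, edgeR adjusted p = 0.864) and -0.10 without KO replicate 2; exons of the antisense gene Gm15283, with 24 to 98 counts, overlap those of Hif1a over 330 bases. Vhl, the substrate receptor of the ligase that removes the factor, had 20.99 and 28.1 CPM in WT and 18.7 and 24.1 CPM in KO, and overlapped.

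Egln1 (PHD2), the main HIF prolyl hydroxylase in most cells, had 68.8 and 67.2 CPM in WT and 72.3 and 99.4 CPM in KO. Its KO values were both higher, that of KO replicate 1 by little. Egln3 (PHD3; ENSMUSG00000035105, chr12:54178981-54203860 on mm10, minus strand), a hydroxylase that is itself induced by HIF, had 27.2 and 15.9 CPM in WT and 27.7 and 65.6 CPM in KO. KO replicate 1 was nearly level with WT replicate 1, and the difference rested on KO replicate 2. The log2 fold change was 1.12 (SE 0.51, n = 2, edgeR adjusted p = 0.661) and 0.38 without KO replicate 2.

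The classical targets of hypoxia had values in both directions, 6 above and 5 below 0, with a median of 0.01. Vegfa, the endothelial growth factor, had 25.5 and 23.6 CPM in WT and 48.96 and 27.2 CPM in KO. Adm, the vasodilator peptide adrenomedullin, had 13.6 and 4.97 CPM in WT and 10.2 and 24.5 CPM in KO. Vegfa was high in KO replicate 1 and Adm in KO replicate 2; Adm overlapped between genotypes, and Vegfa did so with library totals in place of TMM scaling. Their log2 fold changes were 0.63 (SE 0.41) and 0.91 (SE 0.63), and that of Adm was 0.15 without KO replicate 2.

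Mitochondrial control and mitophagy are further outputs of the response. Pdk1, a kinase that keeps pyruvate out of mitochondria, had 95.1 and 55.6 CPM in WT and 61.1 and 58.7 CPM in KO. Bnip3, a mitophagy receptor, had 416 and 577 CPM in WT and 388 and 610.1 CPM in KO, and its log2 fold change was 0.01 (SE 0.33). Bnip3l (NIX), its close relative, had 323 and 366 CPM in WT and 248 and 269 CPM in KO. Bnip3l was lower in both KO embryos with little spread within each group (log2 fold change -0.42, SE 0.28, edgeR adjusted p = 0.804). The estimate stayed between -0.49 and -0.28 with any 1 library left out. Summed visceral endoderm markers were likewise lower in both KO embryos, and their part in the Bnip3l difference was not tested.

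P4ha1 and P4ha2 encode alternative catalytic subunits of collagen prolyl 4-hydroxylase, an enzyme of the endoplasmic reticulum that stabilises collagen. P4ha1 (ENSMUSG00000019916, chr10:59323296-59373304 on mm10, plus strand) had 67.6 and 83.3 CPM in WT and 47.8 and 41.4 CPM in KO. Neither KO embryo reached the lower WT value. This gave a log2 fold change of -0.76 (SE 0.34, n = 2, edgeR adjusted p = 0.65), between -0.89 and -0.59 with any 1 library left out. The summed visceral endoderm markers were also lower in both KO embryos, and their part in the P4ha1 difference was not tested. P4ha2 had 10.6 and 23.1 CPM in WT and 18.1 and 22.6 CPM in KO, and overlapped.

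The remaining targets gave no common direction. Ndrg1, a stress-induced gene, had 57.4 and 87.4 CPM in WT and 60.3 and 26.3 CPM in KO; it was low in KO replicate 2 alone (log2 fold change -0.74, SE 0.46, and -0.26 without that embryo). Ero1l, an oxidase that helps form disulfide bonds, had 71.6 and 98.3 CPM in WT and 87.1 and 63.4 CPM in KO. Ankrd37, an ankyrin repeat gene whose exons overlap Ufsp2 and Lrp2bp on the other strand, stayed between 22.5 and 27.1 CPM in all 4 embryos. Car9, a carbonic anhydrase on the cell surface and a marker of hypoxic tissue, was the lowest of the 31 with 25 and 31 counts in WT and 39 and 50 counts in KO, or 1.47 to 1.84 CPM.

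To compare levels between genes, CPM were divided by the exonic length in kilobases to give RPKM. That length merges all annotated exons of a gene, 4133 bases for Gapdh and 1982 for Pgam1, so the order depends on the annotation. By mean CPM, Eno1 (5028) stood above Ldha (3629) and Pgam1 (2356). By mean RPKM over the 4 embryos the order was Gapdh (1682), Pgam1 (1189), Ldha (1096), Aldoa (979), Eno1 (935), Pgk1 (751), Tpi1 (660.0) and Pkm (425). From Gapdh to Tpi1 the ranges of neighbours in this order overlapped over the 4 embryos. Bnip3 followed with 220 and Slc2a1 with 119 RPKM, above Gpi1 (105) and Pfkl (30.9). The hexokinases were far lower, at 14.0 RPKM for Hk2 and 3.23 RPKM for Hk1, and Hif1a stood at 17.1 and Car9 at 0.734 RPKM.

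Within families of enzymes with the same activity, the share of each gene in the summed RPKM was taken in every embryo, which does not depend on the scaling between libraries. The share does depend on the exonic lengths used. Over 8 families, groups that did not overlap gave an exact two-sided permutation p of 0.333, the smallest that 2 against 2 embryos allow, so this test cannot reach 0.05 for any share; no other test of the shares was run. Hk2 held 84.0% and 78.6% of the hexokinase level in WT and 80.4% and 80.2% in KO. Pfkl held 76.7% and 81.0% of the phosphofructokinase level in WT and 72.6% and 81.2% in KO. These leading isozymes were the same in all 4 embryos, as was Ldha, at 85.0% to 91.8% beside the heart-type subunit Ldhb.

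The genotypes did not overlap in 2 of 8 shares, 1 followed in each family. By level, both KO embryos lay above both WT embryos in 19.4% of all genes tested and below them in 18.8%. These are rates of single-gene levels and none was computed for shares, so 2 of 8 cannot be called an excess. The 2 shares are given as values. P4ha1 held 90.6% and 84.5% of its pair in WT and 80.0% and 73.5% in KO, a difference of -10.8 percentage points. Slc2a3 held 9.53% and 13.8% beside Slc2a1 in WT and 7.70% and 6.72% in KO. In each case KO values lay below both WT values.

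The followed shares of the next 3 families overlapped, while the small share of Pdk4 and that of Egln2 (18.9% and 27.2% in WT, 18.6% and 18.3% in KO) were lower in both KO embryos. Egln3 held 28.2% and 17.6% of the HIF hydroxylases in WT and 27.8% and 38.5% in KO, with KO replicate 1 between the WT embryos. Pdk1 held 49.2% and 28.6% of the pyruvate dehydrogenase kinases in WT and 33.1% and 17.9% in KO, and Pdk3 most of the rest. By raw counts, not divided by length, Pdk1 held 74.2% and 54.4% in WT and 59.7% and 39.5% in KO. Bnip3l held 31.3% and 27.1% beside Bnip3 in WT and 27.2% and 20.5% in KO, with KO replicate 1 just above WT replicate 2.

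**Figure D4:**
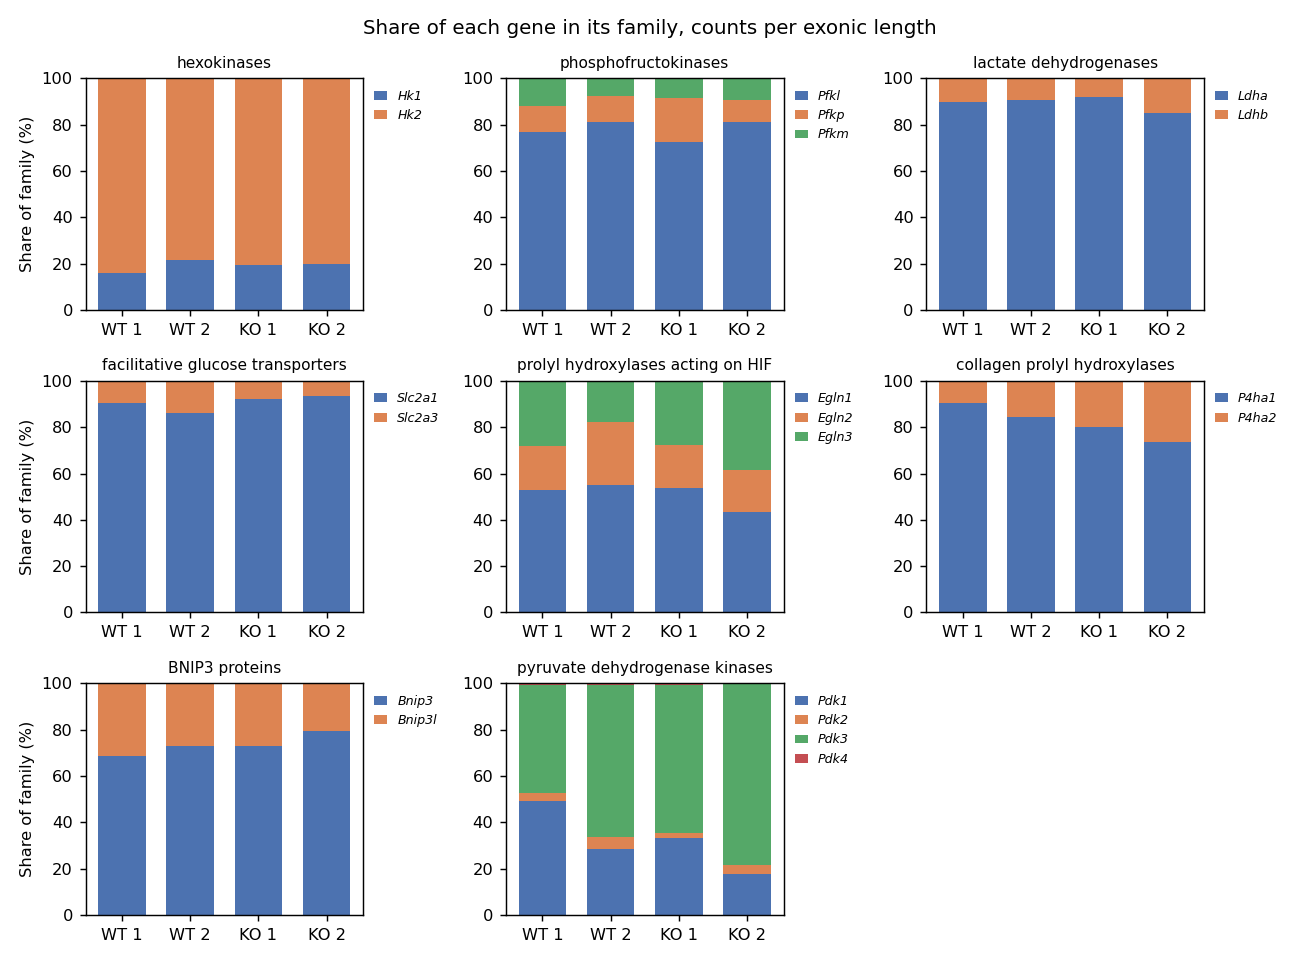
Share of each gene in the summed RPKM of its family (y axis, percent) in each of the 4 embryos (x axis), 8 families. By this measure the leading gene is the same in every embryo except among the pyruvate dehydrogenase kinases, where Pdk1 leads only in WT replicate 1. By raw counts, not drawn, Pdk1 leads in every embryo except KO replicate 2, where Pdk3 holds 57.0%.

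The other genes of these pathways were read from 7 lists, and by edgeR 0 of their members were called in either direction. Of 24 other glycolytic enzymes and isozymes 20 were tested, with 13 estimates above and 7 below 0 and a median of 0.27. Of these, the most abundant and the isozyme partners are described.

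Tigar, a phosphatase that lowers glycolytic flux, had 30.5 and 46.7 CPM in WT and 61.4 and 89.02 CPM in KO. Pgm1, which feeds glycogen sugar into the pathway, had 32.7 and 42.4 CPM in WT and 55.8 and 65.1 CPM in KO. Both genes were higher in both KO embryos, with log2 fold changes of 0.96 (SE 0.39) and 0.69 (SE 0.35). Aldoc, the brain-type aldolase, differed by 1.05 (SE 0.50), the muscle-type Pfkm by -0.46 (SE 0.46) and Ldhb by -0.27 (SE 0.51).

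For gluconeogenesis, the reverse pathway, 5 of 8 genes were tested and their median was -0.07. Pck2, the mitochondrial phosphoenolpyruvate carboxykinase, had 20.99 and 17.4 CPM in WT and 7.08 and 6.71 CPM in KO. Fbp2, the muscle-type fructose bisphosphatase, had 7.49 and 11.2 CPM in WT and 26.7 and 23.4 CPM in KO. Pck2 was lower and Fbp2 higher in both KO embryos, with log2 fold changes of -1.48 (SE 0.43) and 1.42 (SE 0.43) and edgeR adjusted p-values of 0.457 and 0.482. In sum, visceral endoderm markers were lower and ectoplacental cone and giant cell markers higher in both KO embryos. Their part in the Pck2 and Fbp2 differences was not tested. G6pc3, a glucose 6-phosphatase, differed by -0.07 (SE 0.42).

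Of 14 other transport genes 10 were tested, with a median of 0.01. Slc16a1 (MCT1), a lactate and pyruvate carrier, had 322 and 495 CPM in WT and 317 and 214 CPM in KO, and Emb and Bsg, chaperones of such carriers, differed by -0.45 (SE 0.32) and -0.08 (SE 0.27). The KO values of Slc16a1 were lower, KO replicate 1 by little (-0.62, SE 0.34). The pyruvate dehydrogenase list had 10 of 10 genes tested and a median of 0.09: its subunits Pdhb, Dld and Pdha1 differed by 0.20, 0.10 and 0.09, and the kinases Pdk2, Pdk3 and Pdk4 by -0.02, 0.79 and -0.82. The pentose phosphate list had 8 of 8 tested and a median of 0.09. Its dehydrogenase Pgd had 131 and 149.6 CPM in WT and 180.5 and 239 CPM in KO (0.58, SE 0.31), while the transketolase gene Tkt and the transaldolase gene Taldo1 differed by -0.27 and 0.08.

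Of the other HIF subunits and oxygen-sensing genes 13 of 13 were tested, with a median of -0.28. The ligase components Eloc, Rbx1 and Elob differed by -0.43, -0.30 and 0.19 and the hydroxylase Egln2 by 0.22. Cited2, a competitor of HIF for its coactivators, had 50.2 and 88.01 CPM in WT and 271 and 163 CPM in KO, was named after its values were seen, and differed by 1.65 (SE 0.41, edgeR adjusted p = 0.367, DESeq2 adjusted p = 0.0098). Both KO embryos were above both WT embryos; the ectoplacental cone and giant cell markers moved the same way, with 6 of 10 higher in both KO embryos, and their part in this was not tested. Of 28 other hypoxia-response targets 24 were tested, with a median of -0.08, and the abundant ones, the mitochondrial gene Higd1a, the haem oxygenase gene Hmox1 and the transferrin receptor gene Tfrc, differed by -0.32, 0.35 and -0.08. With a low-count filter and all 4 libraries, edgeR thus called no gene of the 7 lists. DESeq2 called Cited2 and 1 of the other glycolytic enzymes and isozymes.

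**Figure D5:**
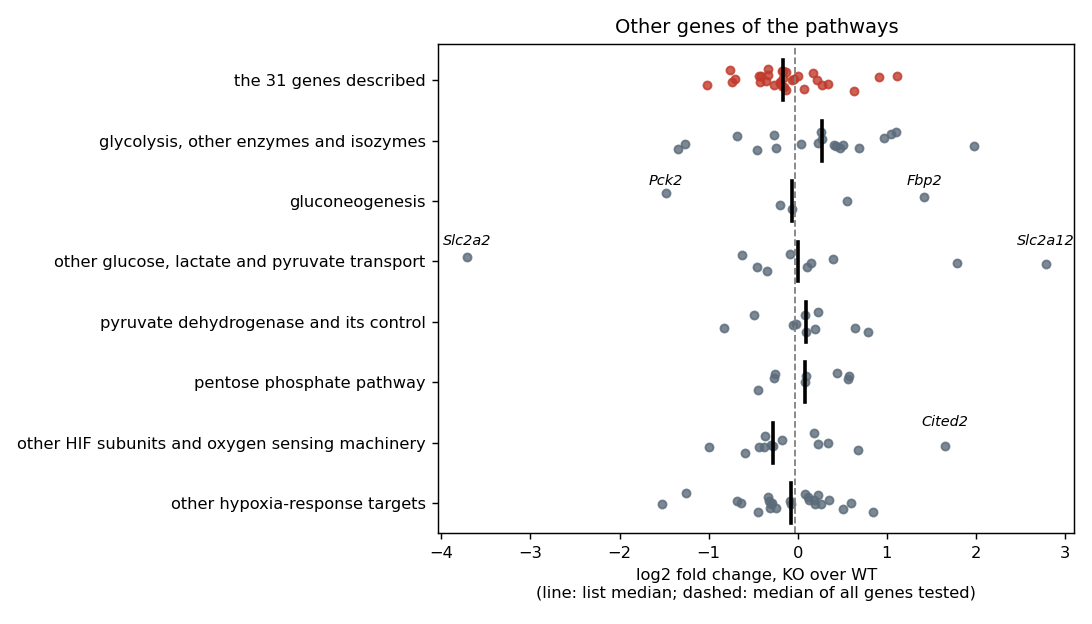
Log2 fold change of KO over WT by edgeR for the 31 genes and for the tested genes of 7 further lists; black lines are list medians and the dashed line is the median of all genes tested (-0.03). List medians lie between -0.28 and 0.27, and Cited2, which DESeq2 called, lies at 1.65; 1 gene of the lists is not drawn but enters its list's median.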

How the data were processed

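Polyadenylated RNA of 4 single embryos was amplified (Smart-Seq v4) and sequenced, per the labels' protocols. The authors deposited whole-number read counts per gene without normalisation. Per the submitters' processing notes, TopHat, Cufflinks and mm10 were used, with no versions or roles. How reads were counted, with which annotation and strand option, is not stated (not given in the sources used here). Such libraries do not mark strand, so exons that overlap across strands share reads, and processed pseudogenes of enzymes such as Gapdh can take reads; the copies of these genes named after them held at most 0.64% of the parent's counts in any library. Symbols, exons and coordinates came from GENCODE M21, which matched 46574 of 47885 rows.

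KO was compared with WT by edgeR 4.0.16 in R 4.3.3 (filterByExpr with minimum count 10 and total 15, TMM scaling, robust quasi-likelihood F test, no replicate block), adjusted after Benjamini and Hochberg over 15563 genes at a threshold of 0.05. CPM use the TMM library sizes. The SE is the absolute log2 fold change over the root of F. The test was tried on simulated counts, but the outcome is not given here and nothing is drawn from it. Alternatives were DESeq2 1.42.0, limma-voom (limma 3.58.1), other scalings and filters, a replicate block and each library left out. The p-values and SE rest on the spread of 2 embryos per group, drawn towards a trend over all genes. They therefore do not measure the spread of a single gene alone, and amplified reads are not independent molecules.

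The genes and lists were chosen with earlier results of these data known. Named from each pathway list were the 3 genes of highest mean CPM, isozyme partners and any gene past the threshold; 1 gene counted in the lists is not reported here.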

Additional observations from a re-analysis of the deposited data

How the results depend on the processing

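None of the 31 genes was called under any of the 11 alternatives. Over all genes edgeR called 0 with RLE scaling, library totals or at least 50 counts in 2 libraries, and limma-voom called 0. With DESeq2 141 genes were called higher and 89 lower, and edgeR with no low-count filter called 157 and 101. With any 1 library removed edgeR called 14 to 133 genes higher and 1 to 209 lower, both largest without KO replicate 1 and both smallest without WT replicate 2. The replicate block gave 52 higher and 19 lower; the labels tie the numbers to nothing shared, and the replicate differences of the 2 genotypes had a correlation of 0.329 over genes.

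Of the 31 genes, 13 kept their sign with any 1 library left out and 18 took both signs, from the lowest to the highest value as follows. Hk1 ran from -0.44 to 0.11, Hk2 from -0.69 to 0.16, Gpi1 from -0.67 to 0.31, Pfkp from -0.47 to 0.15 and Aldoa from -0.45 to 0.37. Tpi1 ran from -0.52 to 0.55, Gapdh from -0.30 to 0.61, Pgk1 from -0.51 to 0.032, Pgam1 from -0.49 to 0.24, Eno1 from -0.63 to 0.32 and Pkm from -0.79 to 0.062. Slc2a1 ran from -0.40 to 0.054, Slc16a3 from -0.58 to 0.61, Vhl from -0.38 to 0.056, Pdk1 from -0.66 to 0.12, Bnip3 from -0.35 to 0.38, Ero1l from -0.38 to 0.081 and P4ha2 from -0.16 to 0.95. Bnip3 was also at -0.0035 with limma-voom and -0.011 with the replicate block. The other 7 alternatives turned no other sign among the 31.

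Among 33 named genes of the lists 11 took both signs: Ldhb from -1.29 to 0.40, G6pc3 from -0.37 to 0.37, Bsg from -0.27 to 0.17, Pdha1 from -0.39 to 0.53, Dld from -0.15 to 0.42, Pdk2 from -0.96 to 0.63, Taldo1 from -0.17 to 0.38, Egln2 from -0.19 to 0.63, Elob from -0.018 to 0.45, Tfrc from -0.61 to 0.36 and Hmox1 from -0.0063 to 0.86. Of the other glycolytic enzymes 1 was called lower by DESeq2 and with no low-count filter, and 0 to 1 with 1 library left out (1 without WT replicate 1 or KO replicate 1). Cited2 was called higher (1 gene) by DESeq2 and with no low-count filter.

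List medians with 1 library left out ran from 0.12 to 0.46 for other glycolytic enzymes, -0.31 to 0.37 for gluconeogenesis, -0.36 to 0.18 for transport, -0.12 to 0.40 for pyruvate dehydrogenase, -0.11 to 0.39 for the pentose phosphate pathway, -0.19 to 0.054 for oxygen sensing and -0.045 to 0.18 for other hypoxia-response targets. The gluconeogenesis median was 0.56 with no low-count filter and 0.24 with at least 50 counts, and the transport median -0.33 with no filter. The oxygen-sensing median was -0.16 with limma-voom and with the replicate block alike. By raw counts in place of counts per length the Slc2a3 share differed by -7.52 percentage points instead of -4.45. The cause of these shifts was not tested. Leaving out libraries for the summed levels was added after seeing the data. With 2 embryos a group, none of the 31 differences passed the test over all genes. In 28 of the 31 the larger difference between embryos of 1 genotype exceeded the estimate of KO over WT. The same was counted for 10852 of the 15563 genes tested, among those with counts in every library.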

Other observations

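Some further genes of the lists stood out after their values were seen and are given as values. Slc2a2 (GLUT2), a glucose transporter of absorptive epithelia and liver, had 13 and 64 counts in WT and 6 and 1 counts in KO, with a log2 fold change of -3.71 (SE 1.42, edgeR adjusted p = 0.574), and from -5.58 to -2.24 when single libraries were omitted. Markers of visceral endoderm ran the same way, at 775 and 2031 CPM in WT and 283 and 355 CPM in KO with 10 of 12 lower in both KO embryos, and their part in this was not tested. Stc2, a secreted glycoprotein gene induced by stress, had 31.2 and 19.8 CPM in WT and 13.4 and 8.04 CPM in KO, lower in both KO embryos (log2 fold change -1.25, edgeR adjusted p = 0.556). Arnt, the constant partner of HIF-1α, had 22.2 and 26.5 CPM in WT and 15.8 and 8.65 CPM in KO, also lower in both (-0.998, edgeR adjusted p = 0.661). Other list genes were higher in both KO embryos, among them Errfi1 (0.84, SE 0.40) and, at 0 to 54 counts, Slc2a12 (2.78, SE 1.69). Estimates below and above 0 numbered 13 and 11 for other hypoxia-response targets, 8 and 5 for oxygen sensing and 5 and 5 for transport.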
